A study of Mus musculus with 12 samples.

Results

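The injured spinal cord of mice that lack Il1a was compared with that of wild-type mice, across all genes measured. The comparison used 8 of the 12 arrays of the series, chosen by their titles: 4 of C57BL/6 wild-type mice and 4 of Il1a knockout mice (Il1a KO), whose labelled background strain was also C57BL/6. All mice were 8 to 12 weeks old and received a contusion of 50 kdyn, and 6 mm of cord around the lesion were removed after 24 h. The remaining 4 arrays, from Il1b knockout mice (Il1b KO) given the same injury, entered only the estimate of the spread, a comparison for Il1a and a set of values given at the end. The labels name the arrays as biological replicates but not the animals behind them, so each p rests on the variation among the arrays, part of which may be technical. They state neither the sex of the mice nor which exons the knockout removed, and no uninjured cord was analysed here, so a difference between genotypes cannot be set against the response to the injury itself.

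Interleukin-1 alpha is held inside many cells, microglia among them, and is released when they are damaged, which makes it an early alarm signal of tissue injury. It binds the same receptor as interleukin-1 beta. The receptor signals through the adaptor MyD88 and the IRAK kinases to NF-kB and stress-activated kinases, which induce cytokines, chemokines and adhesion molecules and so draw neutrophils into the cord. Levels below are log2 values as deposited, so a difference of 1 is a doubling. A gene passed when its adjusted p from limma, a linear model with a spread shared across genes, was under 0.05 over all 19938 genes.

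The arrays carried the profile of spinal cord. In wild type the median marker of mature oligodendrocytes stood at percentile 96.7 of all genes by level, that of resting astrocytes at 97.2 and that of neurons at 95.9, against 16.8 for lymphocytes and natural killer cells and 36.5 for skeletal muscle. Array medians lay between 7.67 and 7.72, and r across genes was 0.993 to 0.999 for pairs of arrays. The number of arrays limits the precision. Wild-type arrays spread more than those of the knockout: the median SD of a gene was 0.0960 in wild type and 0.0579 in the Il1a KO, and the wild-type SD was the larger in 76.3% of genes.

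Il1a KO replicate 1 stood apart in sex-linked genes. Xist, the RNA that silences 1 X chromosome in female cells, was at 6.47 in this array and at 12.01 to 12.08 in the other Il1a KO arrays, and Eif2s3y, on the Y chromosome, was at 9.15 against 3.80 to 3.91. Sex and replicate therefore cannot be told apart in the knockout group, and the main counts and many of the values below are also given without this array. Across all genes it lay apart from its 3 group members (a gap beyond Dixon's 95% critical value for 4 samples) in 336, or 1.69%. That was the most of any Il1a KO array (232 to 289 in the others) and within the 99 to 405 of the wild-type arrays. In several gene lists below, among them reactive astrocytes and mature oligodendrocytes, it was the lowest or highest knockout array. No gene of the X (0 of 739) or Y chromosome (0 of 9) was among those that passed with limma, whether with replicate 1 or without it, and Xist (log2 fold change -1.38, adjusted p = 0.802) and Eif2s3y (1.37, adjusted p = 0.782) did not pass. A single array apart also raises the SE of such a gene, so these counts do not show that sex left other calls unaffected.

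The targeted gene was low and fell. Il1a read 6.22, 5.78, 5.74 and 5.76 in wild type and 4.97, 4.87, 5.03 and 5.03 in the Il1a KO. The groups did not overlap, and the log2 fold change was -0.90 (SE 0.113, limma adjusted p = 0.00372), or -0.90 without Il1a KO replicate 1 (adjusted p = 0.0191). Its mean level stood at percentile 9.37 of all genes, where array values compress differences. The position of the probes relative to the deletion is unknown here, and the remaining signal is therefore no measure of remaining transcript. In the Il1b KO, Il1a read 4.85, 5.31, 5.01 and 5.24, also below wild type. The log2 fold change there was -0.77 (limma adjusted p = 0.0115 with every probe set tested). The difference between the knockouts, Il1a KO minus Il1b KO, was -0.13 (limma adjusted p = 0.914) and did not pass. The fall was therefore not particular to the Il1a KO.

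Among genes with a probe set of their own, few changed and by little. Of 19938 genes, 34 passed (0.171%), 15 of them higher (0.0752%) and 19 lower (0.0953%) in the Il1a KO. The largest of these changes was 1.87-fold and the smallest 1.16-fold, the median was 1.35-fold, and 0 genes that passed reached 2-fold. Probe sets with several listed genes or none are outside this count. With every set tested, 37 of them passed as well, in 28 distinct value patterns, 19 of which differed by at least 2-fold. Several of these patterns come from sets that list the same symbols, so they are not 28 separate signals. When the gene fit used only the 8 arrays of this comparison, 15 genes passed (6 higher and 9 lower), all of them among the 34. For each of the 34 all knockout arrays lay on 1 side of all wild-type arrays, a separation seen in 1008 genes (5.06%) of the whole table, 572 higher (2.87%) and 436 lower (2.19%). Across all genes the median absolute log2 fold change was 0.044, the 95th percentile was 0.15 and the 99th 0.27, beside a median SE of 0.0579. At an unadjusted p under 0.05 there were 1658 genes (8.32%), of which 906 were higher (4.54%) and 752 lower (3.77%), and without Il1a KO replicate 1 there were 1116 (5.60%).

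The width of the intervals says how large a change the arrays would have left room for. The 95% interval of the log2 fold change lay within 0.32 of 0 for 18686 genes (93.7%), a bound called narrow below, within a 1.5-fold change in either direction for 19829 (99.5%) and within 2-fold for 19927 (99.9%). Of 19 genes with an estimated change of at least 1.5-fold, 9 did not pass. Among them were Chil3, a chitinase-like protein of monocytes and macrophages, at a log2 fold change of -0.82 (SE 0.309, adjusted p = 0.464), and Il1r2, the decoy receptor of interleukin-1, at -0.67 (SE 0.180, adjusted p = 0.254). Wild-type arrays ran from 6.78 to 8.47 for Chil3, a range wider than the difference between the groups.

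**Figure D1:**
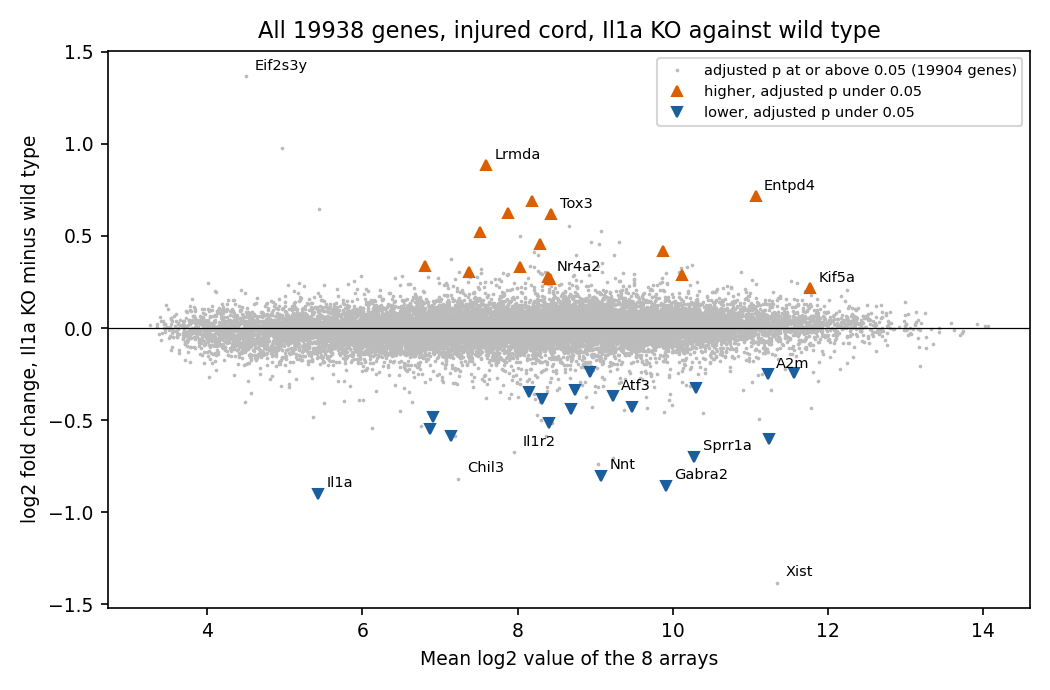
Log2 fold change of every gene (Il1a KO minus wild type, vertical axis) against its mean log2 value over the 8 arrays (horizontal axis). Grey points are genes that did not pass, upward triangles the 15 genes that were higher and downward triangles the 19 that were lower with limma. Xist and Eif2s3y have the largest differences and do not pass; in both 1 knockout array stands apart from the rest.

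The genes with smaller changes were spread over several cell functions. Outside the 12 largest changes in each direction, 3 genes rose and 7 fell. Those that rose were Elovl2, which elongates polyunsaturated fatty acids, Nr4a2, an orphan nuclear receptor that neuronal activity and stress induce, and Kif5a, the neuronal kinesin heavy chain that carries cargo along axons. Those that fell were Atf3, a transcription factor induced by axon injury and other stress, the plasma protease inhibitor A2m, the zinc finger factor Glis3, the tRNA methyltransferase subunit Trmt6, the immunoglobulin superfamily protein Igsf10, and Ermard and Wdr83os, both proteins of the endoplasmic reticulum membrane.

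Elovl2 read 8.35, 8.25, 8.31 and 8.22 in wild type and 8.54, 8.58, 8.52 and 8.56 in the Il1a KO. All 4 knockout arrays were above all wild-type arrays, and the spread of the knockout arrays (SD 0.0256) was below that of wild type (SD 0.0597). The log2 fold change was 0.27 (SE 0.0384, limma adjusted p = 0.0108), and 0.27 without Il1a KO replicate 1 (adjusted p = 0.0397). Leaving out wild type replicate 4 (0.0556 as adjusted p) or Il1a KO replicate 4 ended its call.

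Nr4a2 read 8.28, 8.24, 8.33 and 8.19 in wild type and 8.49, 8.59, 8.52 and 8.54 in the Il1a KO, again with no overlap. Its log2 fold change was 0.27 (SE 0.0402, limma adjusted p = 0.0129) and 0.29 without Il1a KO replicate 1 (adjusted p = 0.0321), which was the lowest knockout array. Leaving out wild type replicate 4 raised the limma adjusted p to 0.0633, and leaving out any of Il1a KO replicates 2, 3 and 4 ended the call too. Nr4a2 was the only one of 18 measured immediate early genes to pass. This list, of genes that cells transcribe within minutes of a stimulus, had a median log2 fold change of -0.02, with Jun at -0.15 (adjusted p = 0.564) and Arc, a regulator of synapses, at 0.14 (adjusted p = 0.503).

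Kif5a had the smallest change that passed, 1.16-fold. Its arrays read 11.68, 11.64, 11.66 and 11.65 in wild type and 11.86, 11.82, 11.89 and 11.93 in the Il1a KO. The knockout arrays were all higher, by more than the tight wild-type spread (SD 0.0180). The log2 fold change was 0.22 (SE 0.0354, limma adjusted p = 0.0279), and 0.22 without Il1a KO replicate 1, where it no longer passed (adjusted p = 0.0975). Leaving out wild type replicate 2, 3 or 4 or Il1a KO replicate 3 or 4 also ended the call (adjusted p up to 0.134). Kif5a was among the brightest genes, at percentile 98.3 by mean level.

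Atf3 and Sprr1a, both known from neurons whose axons have been cut, were the 2 genes that passed among 15 measured genes of axon regeneration. Both fell. Sprr1a, a small proline-rich protein of regenerating axons, read 10.53, 10.43, 10.78 and 10.77 in wild type and 9.73, 9.85, 9.99 and 10.13 in the Il1a KO. Atf3 read 9.35, 9.30, 9.48 and 9.51 in wild type and 9.14, 8.99, 9.04 and 8.99 in the knockout. Neither gene's groups overlapped, but replicate 1 was the lowest knockout array for Sprr1a and the highest for Atf3. The log2 fold change of Sprr1a was -0.70 (SE 0.0953, limma adjusted p = 0.00773) and -0.63 without Il1a KO replicate 1 (adjusted p = 0.0289), and it passed in all 8 fits that left out 1 array. That of Atf3 was -0.37 (SE 0.0606, adjusted p = 0.0272) and -0.40 without replicate 1 (adjusted p = 0.0386). The Atf3 call was lost without wild type replicate 3 or 4 or Il1a KO replicate 2, 3 or 4 (adjusted p up to 0.123).

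The promoter of Sprr1a is shown because Atf3 belongs to the family of factors that bind the AP-1 element and because both genes fell. RefSeq (GRCm38.p6) places its 250 bases before the transcription start at chr3:92485882-92486131 on the minus strand. Capitals mark matches to the AP-1 letters TGANTCA, searched on both strands.
Sprr1a: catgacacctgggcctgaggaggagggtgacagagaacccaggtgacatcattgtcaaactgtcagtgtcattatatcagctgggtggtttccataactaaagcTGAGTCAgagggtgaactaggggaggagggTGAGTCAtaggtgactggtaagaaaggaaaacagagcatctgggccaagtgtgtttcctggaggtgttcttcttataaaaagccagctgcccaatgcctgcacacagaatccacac
The matches begin 146 and 116 bases before the start. These letters occur in 6.75% of 32851 windows of this length, and in 3 of the 24 genes that passed and had a window: Il1a, Sprr1a and Znrd1as. The CRE letters TGACGTCA, the other element of this family, were in 1.55% of windows and in 0 of the 24. Also searched were the E-box letters CACGTG, in 6.02% of windows and 1 of the 24, and the NF-kB consensus, in 7.25% and 2. Atf3 was not among the genes with a match to any of these letters. A gene with more than 1 window counted once, so the shares of windows and of genes are unlike measures. A match is a run of letters and shows no binding.

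The axon regeneration list as a whole had a median log2 fold change of -0.14, and 2 of its 15 members were above 0, where all genes had a median of 0.00 and 50.2% above 0. Besides the 2 genes that passed, Gadd45a, a stress-induced growth arrest gene, was at -0.22 (adjusted p = 0.18). The mean level of the list ran from 9.89 to 9.99 in the wild-type arrays and from 9.71 to 9.84 in the knockout arrays, with no overlap, and replicate 1 was the lowest at 9.71. Without that replicate the median was -0.11, with 2 of 15 members above 0. In whole tissue, fewer cells of a type and less RNA per cell cannot be told apart, for this list and for those below.

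The other smaller falls were also separated between the groups, but their calls depended on single arrays. A2m read 11.31, 11.41, 11.28 and 11.39 in wild type and 11.04, 11.09, 11.17 and 11.09 in the Il1a KO, and the groups did not overlap. Its log2 fold change was -0.25 (SE 0.0429, limma adjusted p = 0.0384). The change was -0.23 without Il1a KO replicate 1 (adjusted p = 0.181), and the call also ended without wild type replicate 2 or 4 or Il1a KO replicate 2, 3 or 4.

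Glis3 read 9.05, 9.04, 9.03 and 9.09 in wild type and 8.76, 8.82, 8.84 and 8.84 in the knockout (log2 fold change -0.24, SE 0.0412, limma adjusted p = 0.0388). Its groups were far apart against their spread, yet the call was lost in each of the 8 fits that left out 1 array (adjusted p up to 0.185, without Il1a KO replicate 1). It was the only one of the 34 genes to pass in 0 of those fits. Wdr83os read 11.66, 11.66, 11.72 and 11.70 in wild type and 11.46, 11.39, 11.43 and 11.46 in the Il1a KO (log2 fold change -0.25, SE 0.0367, adjusted p = 0.0143). Its call held without Il1a KO replicate 1 (-0.26, adjusted p = 0.0397) and was lost without wild type replicate 4 or Il1a KO replicate 2, 3 or 4 (adjusted p up to 0.069).

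Trmt6 read 8.91, 8.95, 8.94 and 8.85 in wild type and 8.59, 8.48, 8.68 and 8.56 in the Il1a KO (log2 fold change -0.34, SE 0.0547, limma adjusted p = 0.0272). Its groups did not overlap, and 2 of the 8 fits that left out 1 array kept its call. Those that lost it were the fits without wild type replicate 2, 3 or 4 or Il1a KO replicate 1, 2 or 4. Ermard read 10.51, 10.37, 10.48 and 10.49 against 10.10, 10.04, 10.27 and 10.13 (log2 fold change -0.32, SE 0.056, adjusted p = 0.0388), and Igsf10 read 8.19, 8.40, 8.42 and 8.26 against 8.05, 7.85, 7.98 and 8.00 (-0.35, SE 0.0602, adjusted p = 0.0393).

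Ermard and Igsf10 each had more than 1 probe set. The 2 sets of Ermard were at -0.38 and -0.32, and the 3 sets of Igsf10 at -0.35, -0.26 and -0.19, all negative. Igsf10 kept its call in 1 of the 8 fits that left out 1 array, the one without wild type replicate 1. Ermard kept it in 2, the fits without wild type replicate 2 or Il1a KO replicate 3. Without Il1a KO replicate 1 the adjusted p was 0.181 for Ermard and 0.0686 for Igsf10.

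**Figure D2:**
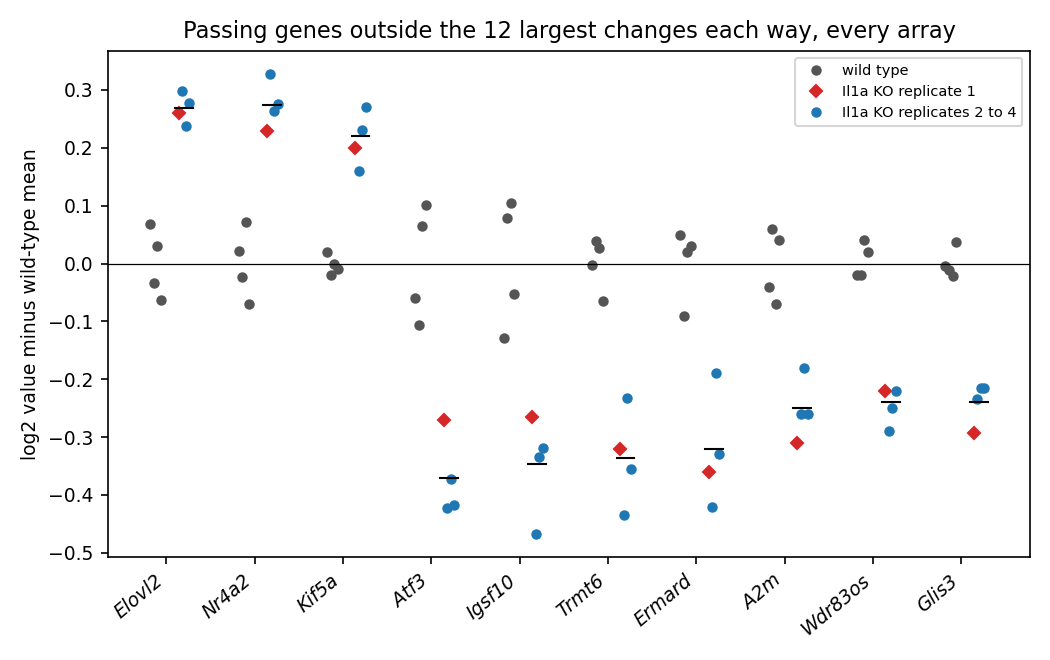
Log2 value of each array minus the wild-type mean (vertical axis) for the 10 genes that passed outside the 12 largest changes in each direction. Grey points are wild-type arrays, blue points Il1a KO replicates 2 to 4, red diamonds Il1a KO replicate 1, and black bars the knockout mean; the groups do not overlap for any of the 10 genes, and replicate 1 lies among or beside its group.

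Just past the threshold the 20 next genes by p had adjusted p from 0.0507 to 0.105. They were 10 with positive and 10 with negative values, and the groups did not overlap in 19 of them. Positive values included genes of glia. Dusp15, a phosphatase of differentiating oligodendrocytes, read 9.01, 9.18, 8.99 and 9.01 in wild type and 9.61, 9.35, 9.49 and 9.33 in the Il1a KO (0.40, SE 0.0724, limma adjusted p = 0.0574). Bcan, the proteoglycan brevican of the neural matrix, read 10.14, 10.08, 9.87 and 9.98 against 10.46, 10.30, 10.27 and 10.36 (0.33, SE 0.0627, adjusted p = 0.0746). In both, replicate 1 was the highest knockout array, and without it the values were 0.34 and 0.29.

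Negative values in this group included genes of leukocytes and of reactive glia. Ly6g, the surface marker of neutrophils, read 6.70, 6.78, 6.58 and 6.79 in wild type and 6.05, 6.50, 6.26 and 6.25 in the Il1a KO (-0.45, SE 0.0905, limma adjusted p = 0.098). The chemokine Ccl5, made by lymphocytes and macrophages, read 8.74, 9.06, 8.98 and 8.91 against 8.61, 8.67, 8.65 and 8.50 (-0.31, SE 0.0634, adjusted p = 0.104). Tm4sf1, a membrane protein of endothelium that reactive astrocytes also make, read 11.82, 11.99, 11.94 and 11.98 against 11.63, 11.70, 11.75 and 11.71 (-0.24, SE 0.046, adjusted p = 0.0767). None of these 3 genes overlapped between the groups, and none passed. Alas2, the erythroid enzyme of haem synthesis, was the 1 gene of the 20 whose groups overlapped (-0.47, SE 0.0962, adjusted p = 0.105).

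Chromosome 8, with 955 of the 19938 genes, held 5 of these 20 genes (Zmat4, Lpcat2, Cmc2, Mmp2 and Rnf150) and 6 of the 34 that passed. The 6 were 0.628% of its genes, where 0.171% of all genes passed. Without Il1a KO replicate 1 the chromosome held 7 that passed, where 0.115% of all genes did. Besides Tox3, those passing with all arrays were Crnde, Wdr83os, Coq9, Gadd45gip1 and Mri1, at 8, 33, 46, 53 and 63 measured genes from it. Of the next genes, Lpcat2, an enzyme that makes platelet-activating factor, lay 12 measured genes from Tox3, and Mmp2, a gelatin-degrading protease, 11. Rnf150, Cmc2 and Zmat4 lay 100, 226 and 432 away. Chromosome 2, which carries Il1a, held 4 of the 34 (0.231% of its 1732 genes): Il1a, Nr4a2, Cd59a and Trmt6. Whether position bears on any of these changes was not tested. Tox3, an HMG-box nuclear protein, was at 0.62 (adjusted p = 1.08e-04). The published study picked Tox3 from these same samples, so its call is not independent evidence. Lpcat2 read 9.80, 9.93, 9.80 and 9.85 in wild type and 9.62, 9.49, 9.30 and 9.46 in the Il1a KO (-0.38, SE 0.0696, limma adjusted p = 0.061). Mmp2 read 8.83, 9.02, 8.65 and 8.81 against 9.37, 9.43, 9.28 and 9.05 (0.45, SE 0.089, adjusted p = 0.0875). The values of Lpcat2 and Mmp2 were opposite in sign, and neither passed with all arrays.

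Without Il1a KO replicate 1 the count of genes that passed was 23 (0.115%), 9 higher and 14 lower, of which 22 were among the 34. All 3 remaining knockout arrays lay on 1 side of the wild-type arrays in 6.32% of all genes. The 1 gene gained was Lpcat2, at -0.43 (limma adjusted p = 0.0395). The 12 genes lost were Pkd2l1, Acat3, Egfem1, Scn4b, Trmt6, Kif5a, Aim2, A2m, Glis3, Ermard, Olfml1 and Igsf10, with adjusted p from 0.0508 for Acat3 to 0.185 for Glis3. No gene of the 34 changed sign. The log2 fold changes of the 34 moved by a median of 0.017 and by at most 0.065, for Sprr1a, becoming smaller in 15 genes and larger in 19. The SE of the 34 genes grew by a median of 9.59% with 1 array fewer.

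Among the 12 lost genes the change became smaller in 8 and larger in 4. Replicate 1 was the knockout array farthest from wild type in 12 of the 34 genes, the same number as replicate 2, against 5 each for replicates 3 and 4. It was the nearest in 11. Among the 12 lost genes it was the farthest in 7. Leaving out Il1a KO replicate 3 or 4 lowered the count further, to 19 each, and leaving out wild type replicate 4 lowered it to 18.

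The lost genes Pkd2l1, Acat3 and Aim2 show both cases, a change that shrank and one that grew. Pkd2l1, which marks cells that touch the fluid of the central canal, read 7.69, 8.02, 7.82 and 7.86 in wild type and 8.66, 8.37, 8.61 and 8.50 in the Il1a KO, with replicate 1 the highest. Its log2 fold change went from 0.69 (limma adjusted p = 0.0153) to 0.65 (adjusted p = 0.0686). Acat3, an enzyme that joins acetyl-CoA units, read 8.89, 8.81, 8.96 and 8.96 against 8.31, 8.42, 8.48 and 8.65, with replicate 1 the lowest, and went from -0.44 (adjusted p = 0.0162) to -0.39 (adjusted p = 0.0508). Aim2, a sensor of cytosolic DNA, read 7.02, 7.24, 7.51 and 7.25 against 7.73, 7.69, 7.87 and 7.81. It lost its call although its change grew, from 0.52 (adjusted p = 0.031) to 0.54 (adjusted p = 0.0925).

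The 8 other genes of the larger changes each lost the call to more than 1 array. Coq9, needed for ubiquinone synthesis, lost it without Il1a KO replicate 3 or 4 (limma adjusted p up to 0.0556), and the antisense RNA Znrd1as without wild type replicate 2, 3 or 4 or Il1a KO replicate 2 or 3 (up to 0.119). Besides Il1a KO replicate 1, Pkd2l1 depended on wild type replicates 3 and 4 and Il1a KO replicates 3 and 4 (up to 0.0716), and Acat3 on wild type replicates 3 and 4 and Il1a KO replicates 2 and 3 (up to 0.0894). Egfem1 depended on wild type replicate 4 and all 4 Il1a KO arrays (up to 0.096), and Aim2 on these and wild type replicate 2 (up to 0.137). Scn4b and Olfml1 depended on wild type replicates 2, 3 and 4 and Il1a KO replicates 1, 3 and 4 (up to 0.127 and 0.173).

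In 16 of the 34 genes the call held in all 8 fits that left out 1 array. They were Il1a, Tox3, Entpd4, Nnt, Lrmda, Gabra2, Crnde, Gadd45gip1, Wdfy1, Ccl28, Ankub1, Cd59a, Mri1, Aqp6, Sprr1a and Hsd11b1. Sprr1a, the regeneration-associated gene, Ccl28, a mucosal chemokine, and Hsd11b1, which regenerates active glucocorticoid, are 3 of these with a known part in injury or inflammation. Hsd11b1 read 8.14, 8.07, 8.15 and 7.91 in wild type and 8.65, 8.50, 8.50 and 8.43 in the Il1a KO. Replicate 1 was its highest array, and the log2 fold change was 0.45 (SE 0.0644, limma adjusted p = 0.0108) with it and 0.41 (adjusted p = 0.0386) without it. Of the 16, Nnt (-0.79), Gabra2 (-0.69) and Ccl28 (-0.55) were also lower in the Il1b KO and passed there. Tox3 and Entpd4 (0.08 each) did not pass there. Holding in all 8 fits concerns single arrays only. Whether the loss of Il1a or a difference in genetic background lies behind these calls was not tested.

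**Figure D3:**
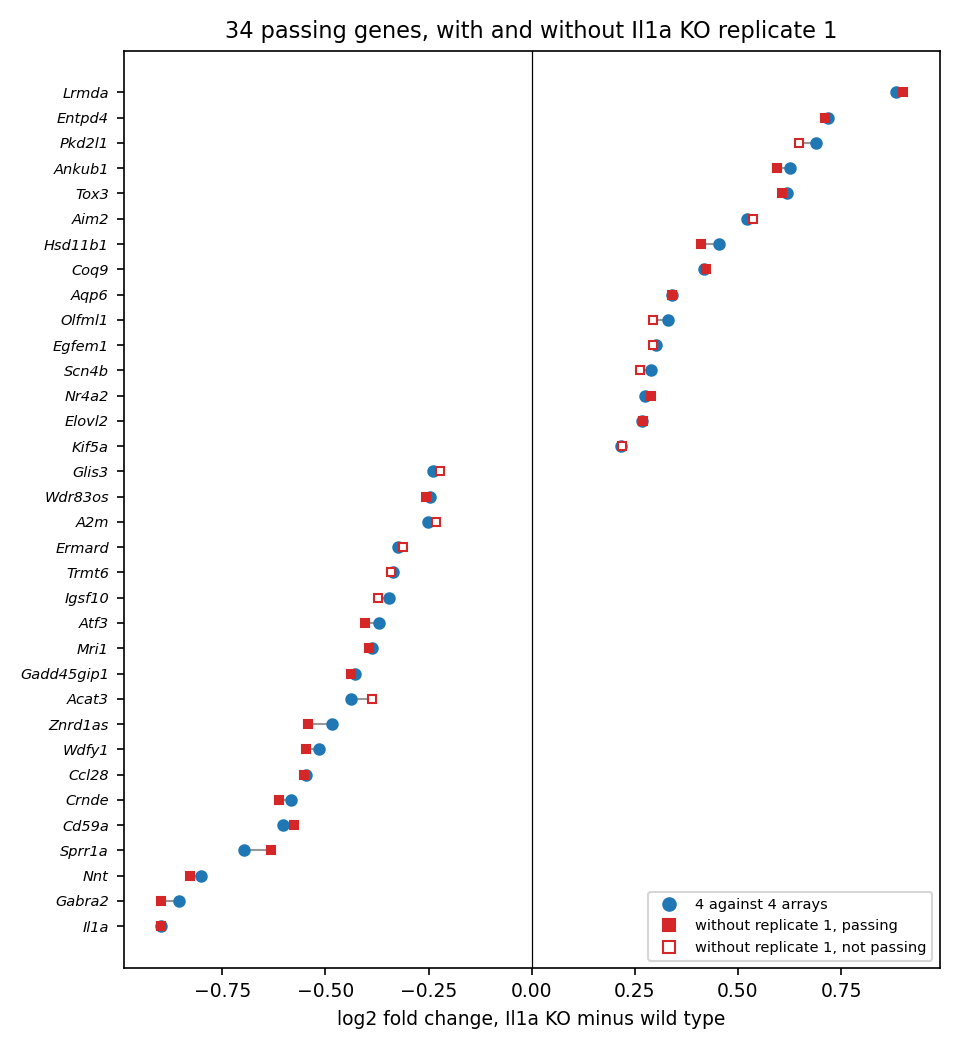
Log2 fold change (horizontal axis) of the 34 genes that passed, with all 4 knockout arrays (blue circles) and without Il1a KO replicate 1 (squares, filled where the gene still passed and open where it did not). All 34 pairs lie on the same side of 0, at most 0.065 apart, and 12 squares are open.

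Gene lists were then read by role, 53 lists with 810 measured genes, of which 14 passed (1.73%, against 0.171% of all genes), 7 higher and 7 lower. The lists were drawn up with earlier results of these data known, Tox3 and several others for that reason, so this share describes the lists and does not test them. For each list the median log2 fold change is set beside the median of all genes, 0.00, and the share of members above 0 beside 50.2%. Some lists share genes and are not separate readings. Lcn2, Cp and Serpina3n are in both the acute-phase and the reactive astrocyte list, and Lcn2 is also in the neutrophil list. Hspb1 is in both the reactive astrocyte and the axon regeneration list, and Il1r2 in both the neutrophil and the interleukin-1 family list.

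In the interleukin-1 pathway no gene but Il1a passed. Of 15 measured ligands and receptors of the family 5 had an unadjusted p under 0.05, 4 of them lower, against 8.32% of all genes, and 3 had one without Il1a KO replicate 1. The median was -0.02, and 7 of the 15 had a narrow interval. Il1b read 7.82, 7.68, 7.78 and 8.06 in wild type and 8.18, 8.05, 8.13 and 7.96 in the Il1a KO, and the groups overlapped (log2 fold change 0.25, 95% interval 0.04 to 0.45, limma adjusted p = 0.465). Il1rn, the receptor antagonist, was at 0.09 (95% interval -0.16 to 0.35, adjusted p = 0.929). Il1r2 read 8.17, 7.90, 8.54 and 8.57 against 7.47, 7.68, 7.60 and 7.74. Its groups did not overlap and it did not pass, with a wild-type SD of 0.319.

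Below the receptor, none of 16 measured adaptors and kinases passed, and 1 had an unadjusted p under 0.05 by limma. All 16 had a narrow interval. Myd88, the adaptor, was at -0.10 (95% interval -0.23 to 0.02), Irak2, a kinase of the signalling complex, at 0.15 (0.03 to 0.26) and Irak3, its inhibitor, at -0.11 (-0.22 to 0.01). Among 17 feedback targets of NF-kB none passed, 1 had an unadjusted p under 0.05 (0 without Il1a KO replicate 1), and the median was -0.04. The lowest p was that of Nfkbiz, an inducible co-regulator of NF-kB, at -0.19 (adjusted p = 0.421).

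Acute-phase genes, which interleukin-1 is known to induce, were mostly negative. Of 15 measured, 6 were lower at an unadjusted p under 0.05, where 3.77% of all genes were. None passed, the median was -0.08, and 4 of 15 members were above 0. Saa2, a serum amyloid A, read 6.18, 6.38, 5.94 and 6.10 in wild type and 5.55, 5.89, 5.88 and 5.72 in the Il1a KO (-0.39, SE 0.104, limma adjusted p = 0.253). Hp, the haemoglobin carrier haptoglobin, was at -0.32 (adjusted p = 0.339) and Cp, the copper carrier ceruloplasmin, at -0.24 (adjusted p = 0.305). The list mean ran from 7.73 to 7.80 in wild type and from 7.47 to 7.71 in the knockout, without overlap, and replicate 1 was the lowest. Without it the median was -0.07, 4 members had an unadjusted p under 0.05, and Hp was at -0.22.

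Chemokines did not move together. Of 26 measured CC and CXC chemokines 1 passed, Ccl28, which was lower, and 14 were above 0, with a median of 0.03, or 17 and 0.02 without Il1a KO replicate 1. Ccl28 read 7.20, 7.10, 7.06 and 7.21 in wild type and 6.61, 6.42, 6.66 and 6.69 in the Il1a KO (-0.55, SE 0.064, limma adjusted p = 0.00228). Ccl17, which attracts T cells, was at 0.40 (adjusted p = 0.329) and Ccl5 at -0.31. Of 20 other cytokines none passed, and the median was -0.01.

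**Figure D4:**
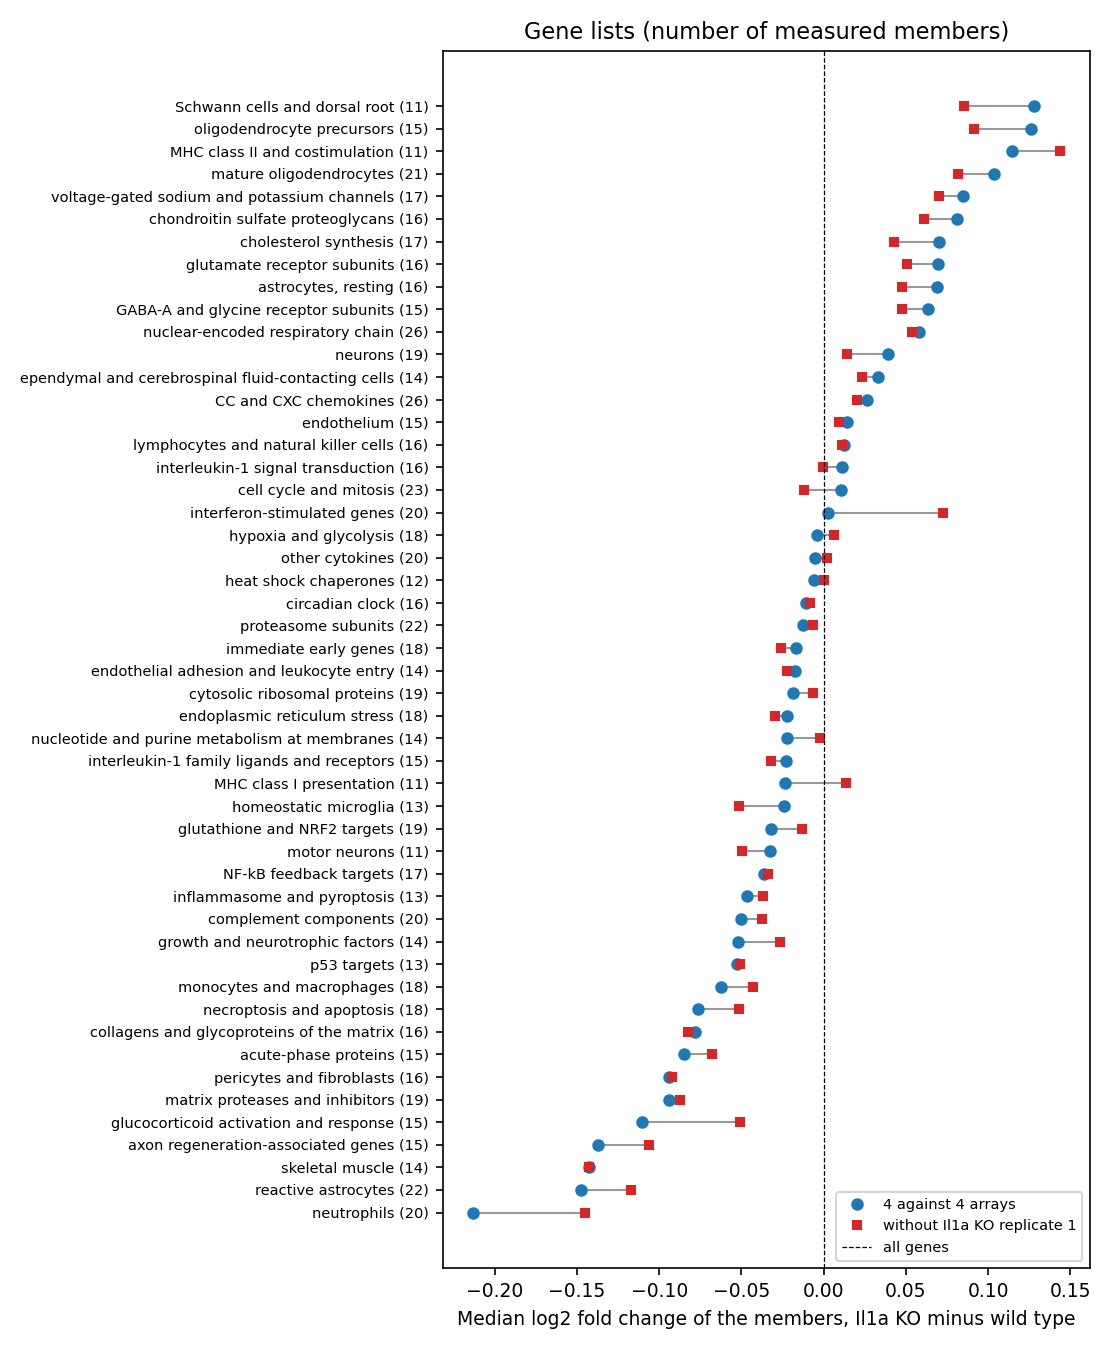
Median log2 fold change of the members of each list with at least 5 measured genes (horizontal axis, Il1a KO minus wild type), with all arrays (blue circles) and without Il1a KO replicate 1 (red squares); the number of members is in brackets and the dashed line is the median of all genes. Neutrophil markers lie lowest with all arrays, at -0.21, and move to -0.15 without replicate 1, and interferon-stimulated genes move from 0.00 to 0.07.

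Leukocyte markers had their lowest values in neutrophils. Of 20 measured neutrophil genes 2 were above 0, the median was -0.21, and none passed. At an unadjusted p under 0.05 by limma 7 were lower, where 3.77% of all genes were, and 1 was higher. Ly6g is described above, and the gelatinase Mmp9 read 9.08, 9.12, 9.26 and 9.25 in wild type and 8.80, 8.83, 8.82 and 8.85 in the Il1a KO (-0.35, SE 0.103, limma adjusted p = 0.32). The list mean was 7.72, 7.55, 7.69 and 7.87 in wild type and 7.32, 7.57, 7.61 and 7.42 in the knockout. These ranges overlapped, replicate 1 was the lowest of the 8 arrays, and without it the median was -0.15, with 5 of 20 members above 0 and 6 at an unadjusted p under 0.05.

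Monocyte and macrophage markers had a median of -0.06, with none of 18 past the test. F13a1, a transglutaminase of monocytes, was at -0.30 (limma adjusted p = 0.18) and Fn1, fibronectin, at -0.19 (adjusted p = 0.32). Homeostatic microglia genes were near 0 (median -0.02, or -0.05 without Il1a KO replicate 1, 13 members), although Gpr34, a microglial lipid receptor, was at 0.26 (adjusted p = 0.16) and Fcrls, an Fc receptor-like protein, at 0.27 (adjusted p = 0.298). Of the 13, 6 were above 0 and 7 below, and at an unadjusted p under 0.05 by limma 2 were higher and 2 lower. Genes of antigen presentation by MHC class II had a median of 0.11 (0.14 without that array), with 10 of 11 members above 0 and none past the test, among them H2-Aa at 0.40 (SE 0.171, adjusted p = 0.549). Those of MHC class I had a median of -0.02, or 0.01 without that array, and all 11 had a narrow interval.

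Markers of other tissues varied along with these lists. All 14 measured skeletal muscle genes were negative, with a median of -0.14, and the list mean was 7.46, 7.17, 7.60 and 7.27 in the wild-type arrays but 7.17 to 7.21 in the Il1a KO arrays. The muscle level was therefore uneven between wild-type arrays and even in the knockout. The 4 measured erythroid genes had a list mean of 7.71 to 8.04 in wild type and 7.68 to 7.92 in the knockout. The part of muscle and blood in the values of the other lists was not tested.

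Interferon-stimulated genes had a wide spread between the knockout arrays themselves. With all arrays their median was 0.00 and 10 of 20 were above 0. Without replicate 1 the median was 0.07 and 19 of 20 were above 0. The list mean was 8.02, 8.15, 8.47 and 8.66 in Il1a KO replicates 1 to 4, a range wider than that of the wild-type arrays (8.25 to 8.49). Xaf1, an interferon-induced pro-apoptotic factor, read 8.27, 8.35, 8.62 and 8.82 in the knockout and 8.31 to 8.52 in wild type. Oas2, which senses double-stranded RNA, read 7.38, 7.65, 7.68 and 8.08 against 7.79 to 8.09. No member had an unadjusted p under 0.05 by limma with all arrays, and 10 of 20 had a narrow interval.

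Reactive astrocyte genes were lower as values in nearly the whole list. Of 22 measured members 1 was above 0, the median was -0.15, 13 were lower at an unadjusted p under 0.05, where 3.77% of all genes were, and 6 were lower without overlap of the groups, where 2.19% were. None passed. Timp1, an inhibitor of metalloproteinases, read 11.89, 12.22, 11.91 and 12.00 in wild type and 11.36, 11.83, 11.56 and 11.54 in the Il1a KO (-0.43, SE 0.105, limma adjusted p = 0.186), and without replicate 1 it was at -0.36. S100a10, an annexin partner, was at -0.22 (adjusted p = 0.267). The list mean was 10.76 to 10.95 in wild type and 10.58 to 10.78 in the knockout, which overlapped, and replicate 1 was the lowest. Without it the median was -0.12, with 3 of 22 members above 0 and 11 at an unadjusted p under 0.05.

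Resting astrocyte markers lay on the other side, with a median of 0.07, 11 of 16 above 0 and all 16 intervals narrow. Glul, the glutamine synthetase that detoxifies glutamate, read 12.58, 12.57, 12.54 and 12.58 in wild type and 12.70, 12.69, 12.69 and 12.65 in the Il1a KO (0.12, SE 0.034, limma adjusted p = 0.311). Its groups did not overlap, though a difference of this size did not pass.

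Oligodendrocyte lists had positive medians. Of 21 measured markers of mature oligodendrocytes 20 were above 0, with a median of 0.10 and 11 members higher at an unadjusted p under 0.05, where 4.54% of all genes were. None passed. Opalin, a myelin paranodal glycoprotein, read 8.51, 9.02, 8.87 and 8.85 in wild type and 9.57, 9.19, 9.36 and 9.24 in the Il1a KO (0.53, SE 0.12, limma adjusted p = 0.16). Gpr37, a receptor of maturing oligodendrocytes, was at 0.30 (adjusted p = 0.129). The list mean was 11.19 to 11.29 in wild type and 11.32 to 11.45 in the knockout, without overlap. Replicate 1 was the highest, and without it the median was 0.08 and the count at an unadjusted p under 0.05 was 5 in place of 11. Precursor markers had a median of 0.13 with 11 of 15 above 0, and 0.09 without replicate 1. Schwann cell and dorsal root markers had a median of 0.13 with 10 of 11 above 0, and 0.09 without replicate 1. Of these 11, Mbp and Mal are also made by oligodendrocytes.

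**Figure D5:**
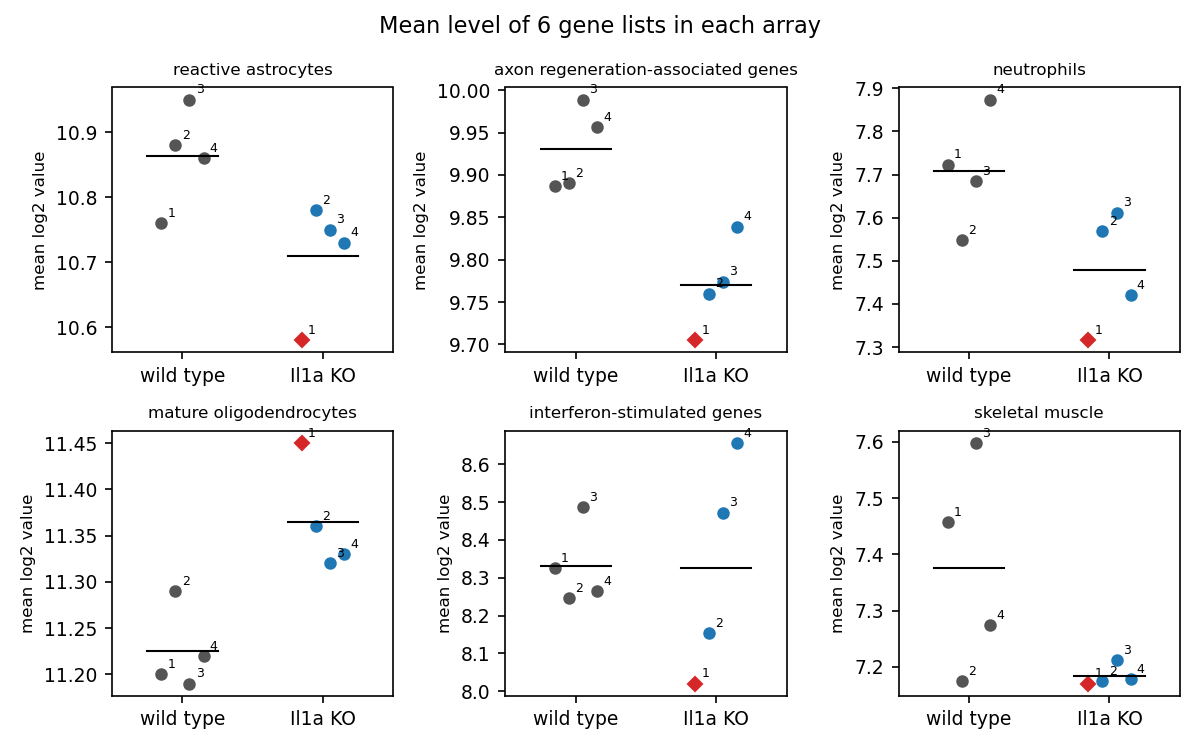
Mean log2 value of 6 lists in each array (vertical axes, which do not start at 0), with wild-type arrays in grey, Il1a KO replicates 2 to 4 in blue, Il1a KO replicate 1 as a red diamond, replicate numbers beside the points and group means as bars. The groups do not overlap for axon regeneration-associated genes (9.71 to 9.84 against 9.89 to 9.99) or mature oligodendrocytes, and the interferon-stimulated genes spread widely within the knockout (8.02 to 8.66).

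Ion channel and receptor genes of neurons were above 0 more often than all genes. Of 17 voltage-gated sodium and potassium channel genes 14 were above 0, with a median of 0.09, 8 were higher at an unadjusted p under 0.05, where 4.54% of all genes were, and 6 were higher without overlap of the groups, where 2.87% were. Without Il1a KO replicate 1 the median was 0.07 and 6 had an unadjusted p under 0.05. Scn4b, an auxiliary subunit of sodium channels, was the 1 member that passed. It read between 9.89 and 10.05 in the wild-type arrays and 10.34, 10.19, 10.31 and 10.21 in the knockout, without overlap (0.29, SE 0.0468, limma adjusted p = 0.0268), and 0.26 without replicate 1 (adjusted p = 0.107). Kcna1, a potassium channel of myelinated axons, read 11.54, 11.49, 11.45 and 11.48 against 11.64, 11.65, 11.67 and 11.64 (0.16, adjusted p = 0.165).

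Of 16 glutamate receptor subunits 14 were above 0, with a median of 0.07, or 0.05 without Il1a KO replicate 1, and none past the test. Grm3, a metabotropic receptor of astrocytes and neurons, was at 0.27 (SE 0.0563, limma adjusted p = 0.108). Of 15 GABA-A and glycine receptor subunits 10 were above 0. Their 1 member that passed, Gabra2, was lower (-0.86), while Gabra5 was at 0.19 (adjusted p = 0.148). General neuronal markers had a median of 0.04, with 14 of 19 above 0, and 0.01 without replicate 1. Motor neuron markers had a median of -0.03, or -0.05 without it.

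Matrix genes went in different directions by class. Proteases and their inhibitors had a median of -0.09, with 6 of 19 above 0, unaltered in number without Il1a KO replicate 1, and 5 whose groups did not overlap, where 5.06% of all genes did not. Mmp2 (0.45), Mmp9 (-0.35) and Timp1 (-0.43) had the lowest p, and none passed. Chondroitin sulfate proteoglycan genes, of the matrix that surrounds neurons and fills glial scars, had a median of 0.08 with 12 of 16 above 0. Hapln4, a link protein of perineuronal nets, read 9.71, 9.71, 9.68 and 9.63 in wild type and 10.02, 9.78, 9.91 and 9.95 in the Il1a KO (0.24, SE 0.0483, limma adjusted p = 0.108). Chst11, which sulfates chondroitin, was at -0.25 (adjusted p = 0.16). Collagens and matrix glycoproteins had a median of -0.08, with 3 of 16 above 0.

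Complement and cell death genes held 2 of the genes that passed. Cd59a, an inhibitor of the membrane attack complex, was the 1 of 20 complement genes that passed, and its mean went from 11.54 ± 0.0847 (SD, n = 4) in wild type to 10.94 ± 0.0628 (SD, n = 4) in the Il1a KO without overlap (-0.60, SE 0.0734, limma adjusted p = 0.00303). Aim2 was the 1 of 13 inflammasome and pyroptosis genes that passed, although 3 of the 13 were above 0 and the median was -0.05. Mlkl, the effector of necroptosis, read 7.21, 7.08, 7.12 and 6.95 against 6.75, 6.85, 6.87 and 6.88 (-0.26, adjusted p = 0.108). Among 15 glucocorticoid genes Hsd11b1 rose, but 3 of the 15 were above 0 and the median was -0.11, or 5 and -0.05 without replicate 1. Fkbp5, a chaperone that glucocorticoids induce, was at -0.23 (adjusted p = 0.369).

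Genes of basic cell processes showed how tightly the groups were measured. The intervals of all 12 heat shock chaperones, all 22 proteasome subunits, all 19 cytosolic ribosomal proteins, all 16 circadian clock genes and all 18 genes of hypoxia and glycolysis were narrow, within 0.32 of 0. Those of all 26 nuclear-encoded respiratory chain genes were narrow as well, and 24 of them were above 0, with a median of 0.06. Atp5o, a subunit of ATP synthase, was at 0.14 (limma adjusted p = 0.328). All 17 cholesterol synthesis genes were above 0, at a median of 0.07, and 15 of 17 at 0.04 without replicate 1, with none at an unadjusted p under 0.05. Cell cycle genes had a median of 0.01 with 14 of 23 above 0, and of -0.01 with 9 of 23 above 0 without replicate 1.

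The Il1b KO arrays share the wild-type controls, so the comparisons are given side by side and no overlap is read from them. In the Il1b KO 162 genes passed (0.813%), and 13 of the 34 did: Il1a, Nnt, Lrmda, Gabra2, Ccl28, Ankub1, Cd59a, Pkd2l1, Acat3, Scn4b, Aim2, Ermard and Olfml1. In the direct comparison of the knockouts 130 genes passed (0.652%), and 11 of the 34 did. Among the genes with smaller changes, Wdr83os (Il1a KO minus Il1b KO -0.24, limma adjusted p = 0.00577) and Trmt6 (-0.30, adjusted p = 0.0226) differed between the knockouts. Elovl2, Nr4a2 and Kif5a did not pass in the Il1b KO, at 0.17 (adjusted p = 0.0689), 0.18 (adjusted p = 0.0635) and 0.15 (adjusted p = 0.0915), nor did the difference between the knockouts (0.10, 0.09 and 0.07).

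Sprr1a was at -0.31 in the Il1b KO (limma adjusted p = 0.183) and Atf3 at -0.11 (adjusted p = 0.472). The differences between the knockouts, -0.38 for Sprr1a (adjusted p = 0.143) and -0.26 for Atf3 (adjusted p = 0.0998), did not pass. Igsf10 was at -0.06 in the Il1b KO (adjusted p = 0.726), and the knockouts differed by -0.29 (adjusted p = 0.0547). Of the genes just past the threshold, Lpcat2 was at 0.06 in the Il1b KO (adjusted p = 0.758) and Mmp2 at -0.02 (adjusted p = 0.954), and both differed between the knockouts (-0.44, adjusted p = 0.00758, and 0.47, adjusted p = 0.0273). Ly6g fell in the Il1b KO (-0.55, adjusted p = 0.00869).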

How the data were processed

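Expression was measured with 12 whole-transcript arrays of injured cord. The log2 values, 1 per probe set and array, were used as the authors deposited them. The submitters' processing notes name GCOS 1.4, RMA, limma and Partek without saying what each did. That the values are RMA summaries was inferred from this list and the values (2.97 to 14.4); RMA equalises array distributions, so a shift of all RNA would not show. Which genome build the platform annotation used is not stated in the labels.

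The table held 35557 probe sets. Of these, 21789 had 1 symbol, 1621 had several and 12147 none; the brightest set stood for each of 999 genes with more than 1 set, which left 19938 genes. Positions came from RefSeq (GRCm38.p6). Il1r1, with no single-symbol set, was not analysed here. All 12 arrays entered 1 limma 3.58.1 model (R 4.3.3) with a mean for each group, which was checked on simulated data. P values are two-sided and Benjamini-Hochberg adjusted over all genes, with 0.05 as threshold and 95% intervals from the same fit.

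The comparison, the genes and the lists were chosen with earlier results of these data known. Named genes were those that passed, the 20 next by p, the targeted, sex-linked and study-named genes, and the 3 members of each list with the smallest p. Chil3 and Il1r2 fall under the last of these. Arrays with the same replicate number did not deviate together (r -0.14 to 0.05), so numbers were not used as pairs. Alternatives covered the arrays in the fit, the variance prior, array weights, a filter on dim genes, normalization, the probe set per gene, the replicate block and leaving out each array.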

Additional observations from a re-analysis of the deposited data

Results flagged for a closer look

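Some named genes had 1 array far from the other 3 of its group, with a gap beyond Dixon's 95% critical value, which chance gives in about 1 of 20 groups. In the wild-type group these were Il1a in replicate 1 (6.22, others 5.74 to 5.78), S100a10 in replicate 1 (12.08, others 12.31 to 12.35), Dusp15 in replicate 2 (9.18, others 8.99 to 9.01) and Pkd2l2, a channel protein, in replicate 2 (5.86, others 5.97). Further cases were Gm4988 in replicate 3 (7.50, others 7.33 to 7.35) and Tox3 (8.02, others 8.16 to 8.17) and Entpd4, a Golgi nucleotidase (10.68, others 10.72), in replicate 4. In the Il1a KO all 3 cases were in replicate 1: Xist (6.47), Eif2s3y (9.15) and Chst11 (9.58, others 9.71 to 9.72).

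Signals that passed were also found outside the gene table, with every probe set tested. Of 1621 sets with several listed symbols 28 passed (1.73%), and of 12147 sets without a listed gene 9 passed (0.0741%). No gene can be named from them.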

How the results depend on the processing

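The count of 34 genes kept within 1.5 times of itself with dim genes dropped (43, 33 shared), quantile normalization repeated (36), arrays centred (34) and the mean of probe sets (36). It was 15 with the 8 arrays of this comparison alone, 74 with an intensity trend and robust prior, 306 with array weights (62.4% of them higher, against 44.1%) and 66 with all probe sets tested. Array weights gave wild type replicate 4 a weight of 2.86 and wild type replicate 3 one of 0.327. Leaving out 1 array gave 18 to 49. With the replicate number as a block 26 genes passed, 21 of them among the 34, and same-numbered arrays correlated with r from -0.14 to 0.05. Il1a kept its direction and call under the 15 alternatives that held it (-0.78 to -0.94), and was among the dim genes dropped in the other. Of 94 named genes, 2 changed sign in 1 alternative each: Il1rn without wild type replicate 2 (-0.003235 to 0.1462 over the fits that left out 1 array) and Xist without Il1a KO replicate 1 (-1.855 to 0.01456). List medians moved beyond the spread between arrays in 3 of 864 cases. In 14 of the 34 genes the call held under every alternative that held the gene. The cause of the moved counts was not tested. With 4 arrays a group the median SE was 0.0579, and a change had to be several times its SE to pass. The smallest that passed was 1.16-fold, for Kif5a. Dim genes such as Il1a are compressed towards background.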

Other observations

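Some of the 37 probe sets that passed outside the gene table differed by more than any gene that passed. They held 28 distinct value patterns, of which 21 were higher and 7 lower in the Il1a KO. At least a 2-fold change was seen in 19 of them, against 0 of the genes that passed. Without Il1a KO replicate 1, 25 of the 28 passed. In the Il1b KO 24 of the 28 passed against the same wild-type arrays, and 9 differed between the knockouts. The 28 patterns are not 28 separate signals, because several came from sets that listed the same symbols. Probe sets 10504178 and 10504148, for example, list the same 6 symbols and were both at 10.61 in the Il1a KO.

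Of the 28 patterns, 9 belonged to sets whose listed symbols RefSeq places on chromosome 4, and 7 to sets listed on chromosome 14. Probe set 10504148, with 6 listed symbols on chromosome 4, was at 8.66 ± 0.102 in wild type and 10.61 ± 0.0361 in the Il1a KO (SD, n = 4 each) (log2 fold change 1.95, limma adjusted p = 1.163e-09). In the Il1b KO it was higher again, by 0.57 on the log2 scale over the Il1a KO. Probe set 10418210, with 3 listed symbols on chromosome 14, differed by 1.27 on the log2 scale (limma adjusted p = 3.167e-07) and by 1.31 in the Il1b KO.

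Among the sets without a listed gene, 10421186 was at 4.56 ± 0.0242 in wild type and 6.73 ± 0.139 in the Il1a KO (2.18, limma adjusted p = 3.393e-09). Its change in the Il1b KO was -0.01 (adjusted p = 0.983), and the knockouts differed (2.18, adjusted p = 2.624e-08). Probe set 10415081, whose values 3 other sets share, was at 9.68 ± 0.399 in wild type and 6.92 ± 0.302 in the Il1a KO (-2.76, adjusted p = 3.611e-04). These sets were tested and described after their values were seen.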
